A study of Mus musculus with 4 samples.

Results

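The nuclear-encoded subunits of the respiratory chain and ATP synthase were taken from a table of ribosome footprints in mouse primary myoblasts by gene name and biotype. The 85 protein-coding genes whose names start with Nduf followed by the letters of a structural subunit, with Uqcr, with Cox4 to Cox8 or with Atp5, together with Sdha to Sdhd, were counted as members, of 55573 genes in the table and 21900 protein-coding genes. By these names, complex I had 37 members, complex II 4, complex III 8, complex IV 18 and complex V 18.

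Ribosome profiling sequences the short RNA fragments that translating ribosomes protect, and so counts ribosomes on messages and not the messages or the proteins. The study profiled proliferating primary myoblasts from hind-limb muscle of 3-week-old mice, with 2 libraries labelled WT and 2 labelled KO. In the KO, eIF5A, the factor that helps ribosomes through difficult peptide bonds such as runs of proline, was floxed (eIF5A f/f, C57BL/6j floxed line) and deleted by tamoxifen through Pax7-CreERT2/+, so that deletion was limited to cells that express Pax7. The WT were littermates, described in one place as Pax7-CreERT2/+ and in another as Pax7+/+;eIF5A f/f, and whether each library came from separate animals is not stated, so the p-values below measure the spread between libraries, which may be technical.

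Complexes I to IV pass electrons from NADH and succinate to oxygen, and complexes I, III and IV pump protons across the inner mitochondrial membrane as they do so. Complex V uses the returning protons to make ATP. Most subunits are made from nuclear genes on cytosolic ribosomes and imported, while a small set is encoded by mitochondrial DNA, and some complex IV subunits have a heart and muscle paralog that replaces the common one in mature muscle.

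The labels were not separated by the targeted gene. The values are RPKM, reads per kilobase of gene on a scale set for each library by median-of-ratios size factors and not by its total reads. Eif5a had 34.9 and 65.2 RPKM in WT replicates 1 and 2 and 60.3 and 59.4 RPKM in KO-labelled replicates 1 and 2, from 50, 73, 130 and 114 reads, and the log2 difference was 0.32 ± 0.48 (SE; limma, adjusted p = 0.839). Every direction given here is therefore one between libraries labelled KO and libraries labelled WT. The 4 libraries held between 642429 and 704006 reads, of which protein-coding genes took 33.9% to 41.5% in WT and 59.2% to 65.4% in KO-labelled libraries. Of 7 myoblast markers all had reads, but Myf5 was listed at 0 in KO-labelled replicate 2, and their summed level was 195 to 248 RPKM in WT and 97.7 to 119 RPKM in KO-labelled libraries. WT replicate 1 stood apart, with a summed level of 163 RPKM over 8 myocyte markers, of which Myog had 91.0 and Actc1 63.6 RPKM. The sum was 18.3 RPKM in WT replicate 2 and 6.75 and 9.16 RPKM in KO-labelled replicates 1 and 2. Mymk and Mymx were at 0 in WT replicates 1 and 2 and KO-labelled replicate 2. Myh3 was at 0 in WT replicate 2 and KO-labelled replicate 1, and Ckm in KO-labelled replicate 1. Markers of fibroblasts (6 genes), endothelial cells (4) and immune cells (5) also had reads, so the libraries were not of myoblasts alone. Fibroblast markers summed to 250 to 444 RPKM in WT and 327 to 750 RPKM in KO-labelled libraries. Endothelial markers summed to 95.1 to 102 RPKM in WT and 106 to 131 RPKM in KO-labelled libraries. Immune markers summed to 28.4 to 38.5 RPKM in WT and 25.03 to 25.9 RPKM in KO-labelled libraries, with Ptprc at 0 in WT replicate 2 and KO-labelled replicate 2 and Csf1r at 0 in WT replicate 2. Without overlap between the groups, 5 of 7 myoblast, 3 of 4 tested myocyte and 2 of 3 tested immune markers were lower in the KO-labelled libraries. Higher without overlap were 2 of 6 fibroblast, 3 of 4 endothelial and 1 of 3 tested immune markers. Of protein-coding genes tested, 19.3% were lower and 22.4% higher. How far cell makeup moved the subunit genes was not tested, and fewer cells of a type cannot be told apart from fewer footprints per cell.

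Footprints were found on most structural subunit genes, though some had very few. Of the 85 members, 81 had reads and 79 reached a mean of 1 RPKM over the 4 libraries and were tested, with a median of 97 reads per gene over all libraries against 54 for all 11363 genes tested. Of the 79, 4 passed through 1 group alone, Cox4i2, Cox6a2 and Cox8b through WT and Ndufb2 through the KO-labelled libraries, so their directions were fixed by the filter. The 6 below that level were Cox7a1, Cox6b2, Cox8c and Cox7b2 of complex IV, and Atp5l and a second, overlapping entry of Atp5o in complex V. Of these, Cox6b2, Cox8c, Cox7b2 and the second Atp5o entry were listed at 0 reads in all 4 libraries. Because gene length in the table includes untranslated exons, levels of different genes are compared as coding RPKM, that is RPKM rescaled to the longest annotated coding sequence of the gene. On this scale the tested members ran from 2.53 to 529 with a median of 70.1, and the plot of coding RPKM shows the order within each complex.

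**Figure D1:**
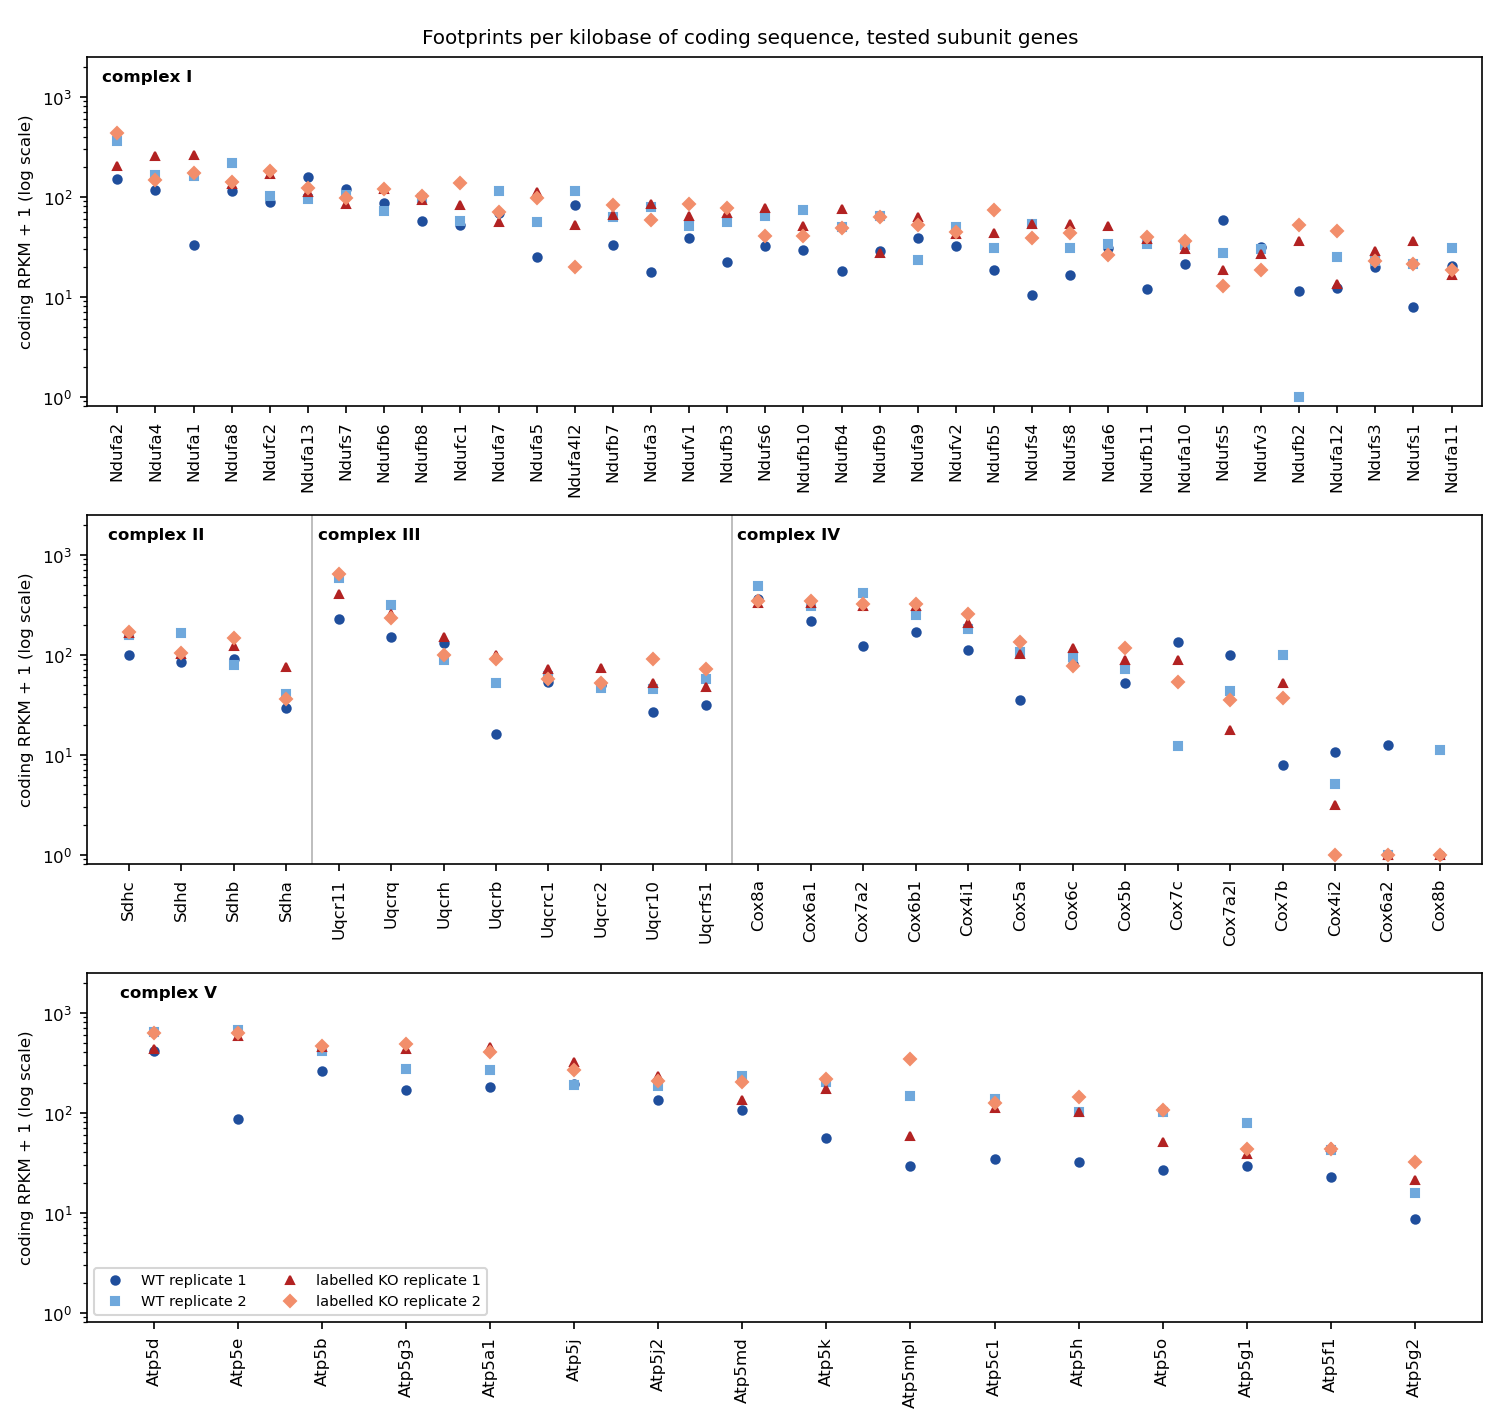
Coding RPKM + 1 on a log scale (vertical) of the tested subunit genes, 1 of them left out (horizontal, ordered by mean level within complexes I to V), one point per library with colour and shape for the library. Atp5d and Atp5e lead complex V, Uqcr11 leads complex III and Cox8a leads complex IV, and the dark blue circles of WT replicate 1 are often the lowest.

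Together the members took 0.677% of protein-coding reads in WT replicate 1 (1821 reads, 95% Wilson interval 0.646 to 0.708), 1.03% in WT replicate 2 (2232 reads, 0.984 to 1.07), 1.03% in KO-labelled replicate 1 (4719 reads, 0.997 to 1.06) and 1.13% in KO-labelled replicate 2 (4339 reads, 1.09 to 1.16). These intervals cover counting error only. WT replicate 1 was the low library, and WT replicate 2 and KO-labelled replicate 1 could not be told apart. The group means were 0.851 ± 0.247% for WT and 1.08 ± 0.0715% for KO-labelled libraries (SD, n = 2 each), so that the difference between the means was smaller than the SD of the WT pair. With 2 libraries against 2, an exact permutation test cannot go below p = 0.33.

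Across all 79 tested members the median log2 difference, KO-labelled minus WT on the log2(RPKM + 1) scale, was 0.47, against 0.049 for all 9877 protein-coding genes tested. It was above 0 in 62 members (78.5%, against 53.1% of protein-coding genes). No member passed an adjusted p of 0.05 with limma, where 0.0% of protein-coding genes and 0.106% of all genes tested did, and the smallest adjusted p of a member was 0.672. With limma-voom on the recovered reads none passed either, and 10 of the 79 members had an unadjusted p under 0.05 in either direction, where 9.88% of protein-coding genes did. With limma on log2(RPKM + 1), 2 members were higher and 3 lower at that p, against 2.94% and 3.04% of protein-coding genes. All 5 were also past a 2-fold difference, which together with that p held for 2.72% of protein-coding genes in the higher and 2.84% in the lower direction. Of the 3 lower members, Cox4i2 had its direction fixed by the filter. Both KO-labelled libraries lay above both WT libraries in 30 members (38.0%), against 22.4% of protein-coding genes. Both lay below in 8 members (10.1%), against 19.3% of protein-coding genes. WT replicate 1 was the lowest of the 4 libraries in 56 of the 79 members (70.9%), against 32.3% of protein-coding genes. Without WT replicate 1 the median difference of the members was 0.084, and 46 members were above 0. Without it 33 members were higher and 24 lower without overlap, against 38.6% and 34.0% of protein-coding genes with the same 3 libraries. Without WT replicate 2 the median difference of the members was 0.79. The median of protein-coding genes was 0.033 without WT replicate 1 and 0.034 without WT replicate 2. The shift of the members as a set thus ran from 0.084 to 0.79 with the choice of WT library. The plot of each library's deviation shows this for the 5 complexes.

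**Figure D2:**
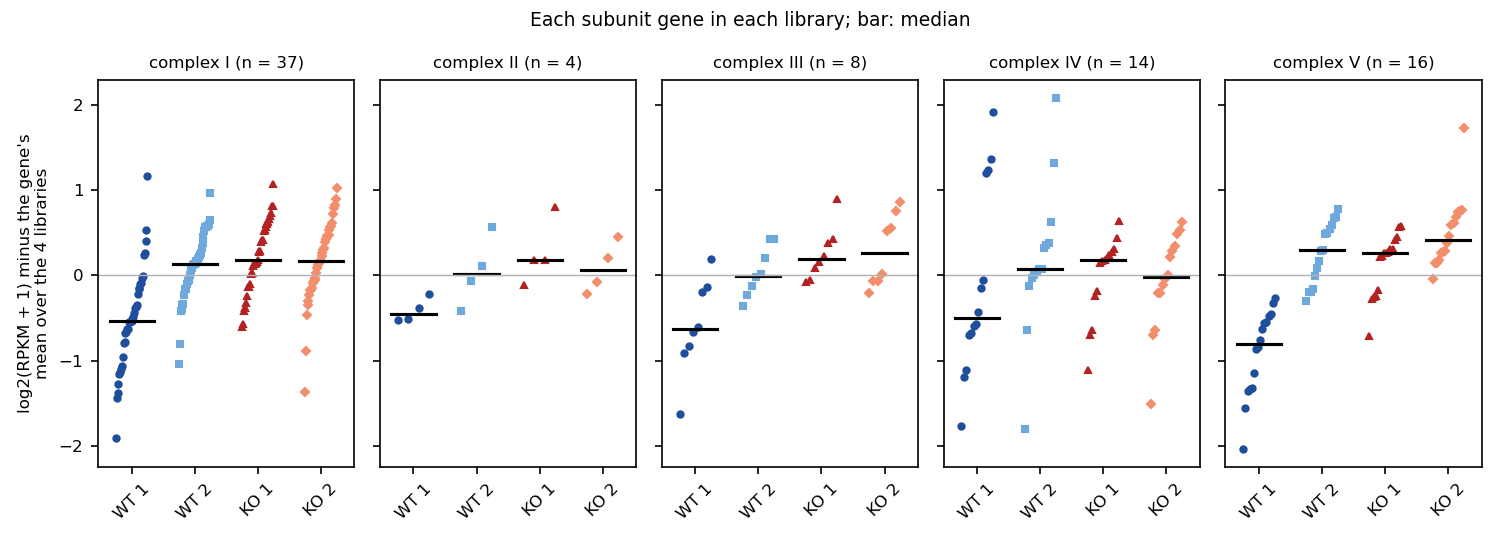
Log2(RPKM + 1) of each tested subunit gene minus that gene's mean over the 4 libraries (vertical), by library (horizontal; KO 1 and KO 2 are the libraries labelled KO), with 1 panel per complex and a bar at the median. The medians of WT replicate 1 lie below 0 in all 5 panels, while WT replicate 2 lies near the KO-labelled libraries.

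By complex, the median log2 difference was 0.46 for complex I, 0.49 for complex II, 0.41 for complex III, 0.41 for complex IV and 0.67 for complex V. Members above 0 numbered 27 of 37, 3 of 4, 8 of 8, 9 of 14 and 15 of 16 in the same order. The groups did not overlap, with the KO-labelled libraries higher, in 14 members of complex I (37.8%), 2 of complex II, 3 of complex III (37.5%), 4 of complex IV (28.6%) and 7 of complex V (43.8%), against 22.4% of protein-coding genes. They were lower without overlap in 5 members of complex I (13.5%) and 3 of complex IV (21.4%), against 19.3%, and in no member of complexes II, III and V. Without the 4 members whose direction the filter fixed, complex IV had a median of 0.49 with 9 of 11 above 0 and 2 lower without overlap, and complex I a median of 0.41 with 26 of 36 above 0. Leaving out WT replicate 1 brought these medians to 0.13, 0.22, 0.24, 0.0075 and 0.0072, so that complex V, which had the largest difference with all libraries, lost nearly all of it. In complex V, WT replicate 1 was the lowest library for 15 of 16 genes, and the median RPKM was 10.4 there, 32.8 in WT replicate 2, 33.1 in KO-labelled replicate 1 and 47.7 in KO-labelled replicate 2. Whether the complexes differed from each other was not tested.

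**Figure D3:**
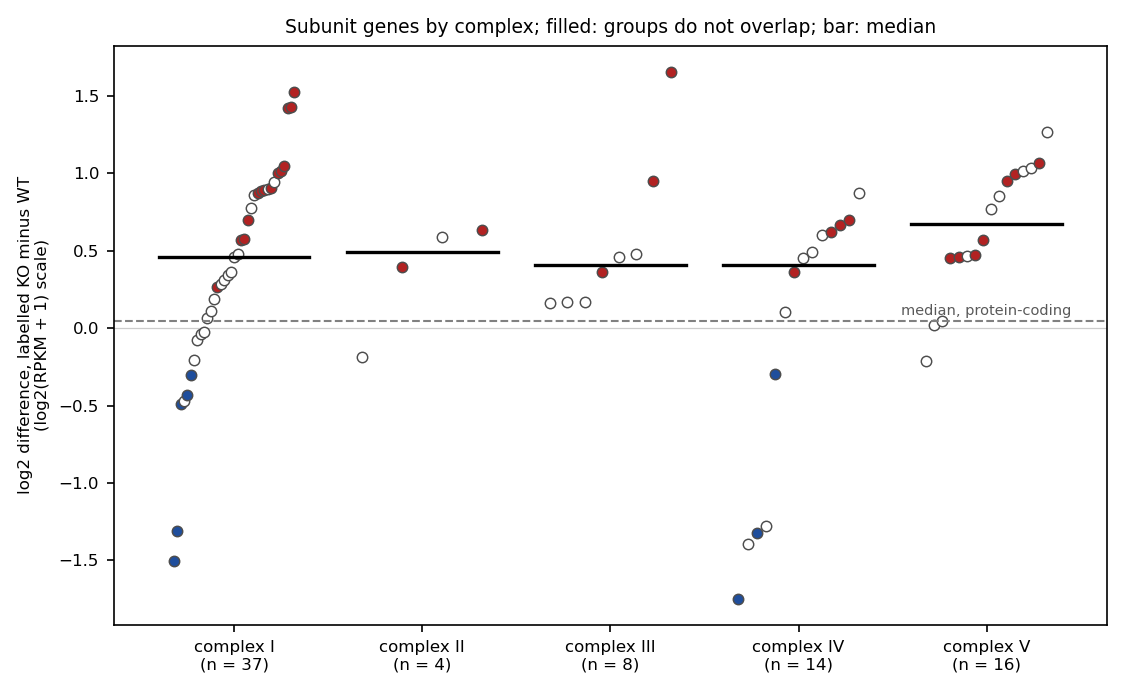
Log2 difference, KO-labelled minus WT, of the 79 tested subunit genes (vertical, log2(RPKM + 1) scale) by complex (horizontal), with filled points where the groups do not overlap and a bar at the median of each complex. The 5 medians lie between 0.41 and 0.67, above the dashed line at the median of protein-coding genes, 0.049, and the lowest points belong to complexes I and IV.

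Complex I, the NADH dehydrogenase, had members with large differences in both directions, from -1.51 to 1.53 on the log2 scale. Its 7 nuclear-encoded core subunits, which carry the flavin and iron-sulfur clusters, had a median log2 difference of 0.26, and the 29 others, with the paralog Ndufa4l2 left aside, of 0.48. Of the core, Ndufs8, which binds iron-sulfur clusters, read 7.71 and 14.8 RPKM in WT replicates 1 and 2 and 25.6 and 21.1 RPKM in KO-labelled replicates 1 and 2. All KO-labelled values lay above the WT values, and the log2 difference was 1.05 ± 0.45 (SE; limma, unadjusted p = 0.0616, adjusted p = 0.675), or 0.62 without WT replicate 1. The other core genes ran from a log2 difference of -0.30 for Ndufs7, which was lower without overlap, to 0.94 for Ndufs1, whose groups overlapped.

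Ndufa5 (ENSMUSG00000023089, chr6:24518666-24528013, minus strand, GRCm38), an accessory subunit of the arm that oxidises NADH, was read at 8.04 RPKM in WT replicate 1 and 18.5 RPKM in WT replicate 2 (5 and 9 reads), against 37.4 and 32.4 RPKM in KO-labelled libraries (35 and 27 reads). The groups did not overlap, and the log2 difference was 1.43 ± 0.50 (SE; limma, unadjusted p = 0.0298, adjusted p = 0.672). It was 0.88 without WT replicate 1 and 1.99 without WT replicate 2. Ndufa1, a small membrane subunit, had 15.8 and 81.1 RPKM in WT and 132 and 85.7 RPKM in KO-labelled libraries. The groups did not overlap by a narrow margin between WT replicate 2 and KO-labelled replicate 2, and its log2 difference of 1.53 fell to 0.39 without WT replicate 1. Ndufb2, a membrane-arm subunit with 25 reads in all, was listed at 0 in WT replicate 2 and had 0.589 RPKM in WT replicate 1, against 1.96 and 2.86 RPKM in KO-labelled libraries. It fell outside the rule for named genes and was chosen after its values were seen.

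The opposite direction was clearest in Ndufa4l2 and Ndufs5. Ndufa4l2 (ENSMUSG00000040280, chr10:127514967-127517154, plus strand, GRCm38) is a paralog of Ndufa4 known as a gene induced by low oxygen. It had 19.7 and 27.1 RPKM in WT replicates 1 and 2, and 12.1 and 4.52 RPKM in KO-labelled replicates 1 and 2, with 13, 14, 12 and 4 reads. Both KO-labelled values lay below both WT values, and the log2 difference was -1.51 ± 0.53 (SE; limma, unadjusted p = 0.0308, adjusted p = 0.672). It was -1.73 without WT replicate 1, -1.28 without WT replicate 2, -2.13 without KO-labelled replicate 1 and -0.88 without KO-labelled replicate 2. Ndufa4l2 shares 32 exon bases with Shmt2 on the opposite strand, which had 192 reads. The use of strand in counting is not stated, so reads there cannot be told apart. The common paralog Ndufa4, which assembles with complex IV despite its name, had 20.4 and 29.2 RPKM in WT and 45.5 and 26.0 RPKM in KO-labelled libraries, and these overlapped. Of the coding RPKM of the pair, Ndufa4l2 made up 41.9% and 41.0% in WT replicates 1 and 2, and 16.6% and 11.5% in KO-labelled replicates 1 and 2. In reads this was 13 of 30, 14 of 33, 12 of 69 and 4 of 33, with Wilson intervals of 27.4 to 60.8%, 27.2 to 59.2%, 10.2 to 28.0% and 4.82 to 27.3%. The 2 WT shares were alike and above both KO-labelled shares (exact permutation test of the RPKM shares, p = 0.33, the smallest the design allows). The intervals of both WT libraries overlapped that of KO-labelled replicate 1 at the edge. That of WT replicate 2 also overlapped that of KO-labelled replicate 2.

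Ndufs5 (ENSMUSG00000028648, chr4:123712710-123718202, minus strand, GRCm38), a subunit on the intermembrane side, had 21.2 and 9.87 RPKM in WT and 6.41 and 4.32 RPKM in KO-labelled libraries, from 11, 4, 5 and 3 reads. Its log2 difference was -1.31 ± 0.49 (SE; limma, unadjusted p = 0.0373, adjusted p = 0.672), and -0.79 without WT replicate 1. Only 23 reads support these values. Ndufa11, a membrane subunit, and Ndufv3, a small flavoprotein subunit, were also lower without overlap, with log2 differences of -0.49 and -0.43. The members of complex I with the highest RPKM, Ndufa2 and Ndufa8, showed no separation. Ndufa2 read 78.3 and 186 RPKM in WT and 104 and 225 RPKM in KO-labelled libraries, so its replicates differed more than its groups, and Ndufa8 had a log2 difference of -0.20.

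In complex II, succinate dehydrogenase, all 4 subunits are nuclear. Sdha, the flavoprotein, had 13.7 and 19.0 RPKM in WT replicates 1 and 2 and 35.8 and 17.1 RPKM in KO-labelled replicates 1 and 2, which overlapped. Sdhb, the iron-sulfur subunit, had 34.1 and 29.4 RPKM in WT and 45.3 and 54.7 RPKM in KO-labelled libraries. Here the groups were apart, with a log2 difference of 0.64 ± 0.41 (SE; limma, unadjusted p = 0.172), and WT replicate 1 was not the lowest library. Of the membrane anchors, Sdhc read 15.3 and 24.2 RPKM against 25.4 and 25.9 RPKM (log2 difference 0.40, and 0.084 without WT replicate 1), and Sdhd 32.3 and 63.8 RPKM against 39.4 and 40.2 RPKM (log2 difference -0.19). In coding RPKM the subunits, which assemble in equal numbers, were not at equal levels, and Sdhc stood 2.20 to 4.69 times above Sdha in the 4 libraries.

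In complex III, the cytochrome bc1 complex, all 8 members had a log2 difference above 0. The 2 core proteins were level with each other, with an Uqcrc1 to Uqcrc2 ratio of coding RPKM between 0.965 and 1.33 in the 4 libraries. Uqcrc1 overlapped between groups, and Uqcrc2 did not (26.0 and 24.1 RPKM in WT, 38.9 and 27.2 RPKM in KO-labelled libraries). Uqcrfs1, the Rieske iron-sulfur protein, had 18.3 and 34.3 RPKM in WT and 28.3 and 42.7 RPKM in KO-labelled libraries, and these overlapped. Uqcrb (ENSMUSG00000021520, chr13:66900617-66905378, minus strand, GRCm38), a small subunit that takes part in ubiquinone binding, had the largest positive difference of all 79 members. It had 5.68 and 19.4 RPKM in WT replicates 1 and 2, and 37.8 and 33.9 RPKM in KO-labelled replicates 1 and 2, from 3, 8, 30 and 24 reads. The groups did not overlap, and the log2 difference was 1.66 ± 0.60 (SE; limma, unadjusted p = 0.0344, adjusted p = 0.672), or 0.85 without WT replicate 1. Uqcr11 and Uqcrq, small subunits and the most highly occupied of the complex in coding RPKM, had log2 differences of 0.48 and 0.17, which became -0.19 and -0.34 without WT replicate 1.

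Complex IV, cytochrome c oxidase, held both the common subunits and the paralogs that are particular to tissues or conditions. The common Cox4i1, which binds the catalytic core, had 36.4 and 58.9 RPKM in WT and 66.9 and 82.3 RPKM in KO-labelled libraries. Cox6b1, on the intermembrane side, had 60.9 and 89.9 RPKM in WT and 112 and 117 RPKM in KO-labelled libraries. Both were higher without overlap, with log2 differences of 0.67 and 0.62, which were 0.33 and 0.35 without WT replicate 1. Cox6a1 was higher by 0.36 on the log2 scale without overlap, and by 0.11 without WT replicate 1. Cox8a, with Cox7a2l and Cox4i2 one of 3 genes of the complex that were lower without overlap, read 121 and 161 RPKM in WT against 110 and 116 RPKM in KO-labelled libraries (log2 difference -0.30). Cox7a2 followed WT replicate 1, with 31.6 RPKM there and 108, 80.6 and 85.2 RPKM in WT replicate 2 and KO-labelled replicates 1 and 2. Cox7a2l, a Cox7a paralog known for joining complexes III and IV into supercomplexes, had 26.9 and 11.5 RPKM in WT and 4.48 and 9.21 RPKM in KO-labelled libraries. Its log2 difference was -1.32 ± 0.56 (SE; limma, unadjusted p = 0.0578, adjusted p = 0.675), and -0.74 without WT replicate 1.

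The muscle paralogs were almost without footprints in every library. Cox6a2 had 2 reads, all in WT replicate 1, of 46 reads on the Cox6a pair there. Cox7a1 had 1 read, also in WT replicate 1, of 19 on the pair Cox7a1 and Cox7a2. Cox8b had 1 read, in WT replicate 2, of 48 on the Cox8 pair. All 3 genes were listed at 0 in both KO-labelled libraries, where 0 of 99 and 0 of 93 reads allow a Cox6a2 share of up to 3.03% and 3.23%, 0 of 69 and 0 of 65 a Cox7a1 share of up to 4.35% and 4.62%, and 0 of 62 and 0 of 58 a Cox8b share of up to 4.84% and 5.17%. The WT counts were themselves at or below 3 reads, so no difference in paralog use was detectable at this depth. WT replicate 1 held reads of 2 of the 3 genes and also had the highest summed level of the myocyte markers. Most of that sum came from Myog and Actc1, while Ckm and Tnnc1 were highest in WT replicate 2. Mymk and Mymx had reads in KO-labelled replicate 1 only. Whether the paralog reads go with these markers was not tested. Cox6b2, a paralog of testis, was at 0 throughout.

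Cox4i2 (ENSMUSG00000009876, chr2:152754173-152765037, plus strand, GRCm38), the paralog of Cox4i1 known for its response to low oxygen in lung, had 6.32 and 2.69 RPKM in WT and 1.40 and 0 RPKM in KO-labelled libraries. These rested on 3, 1, 1 and 0 reads, and its share of the pair's coding RPKM was 7.98%, 2.23%, 1.03% and 0% in the same order. Like Cox6a2 and Cox8b, Cox4i2 reached the mean of 1 RPKM through the WT libraries alone, so a lower value in the KO-labelled libraries was built into its choice and is given as a description.

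**Figure D4:**
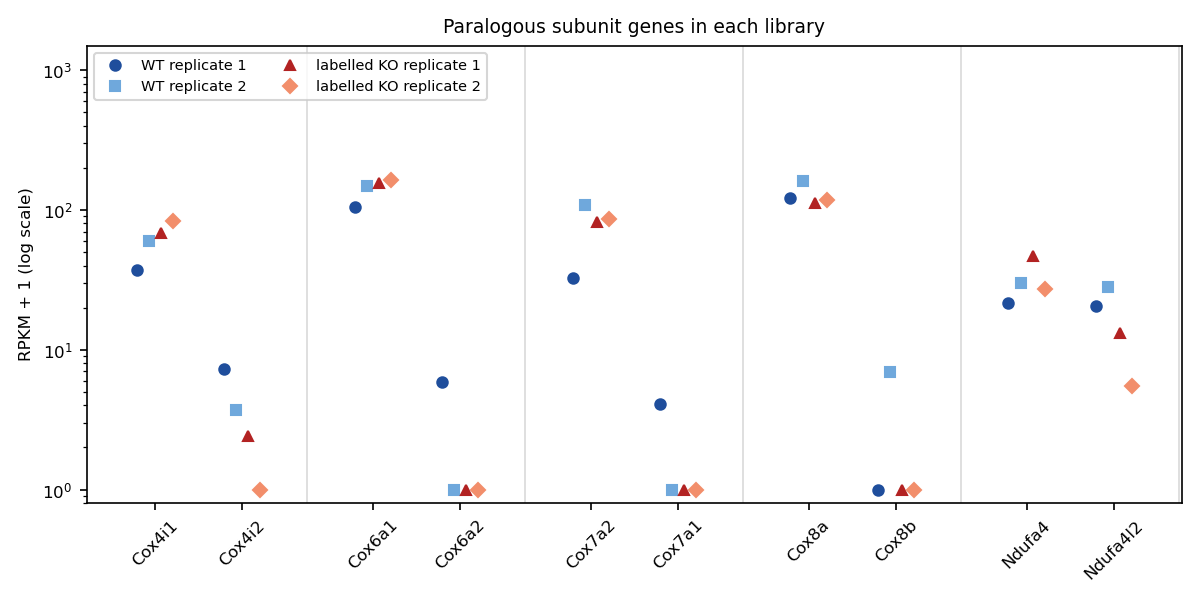
RPKM + 1 on a log scale (vertical) of the common and the tissue- or condition-linked paralog of 5 subunits (horizontal), one point per library, where genes at 0 sit at 1. Ndufa4l2 is lower in both KO-labelled libraries, at 12.1 and 4.52 RPKM, than in WT, at 19.7 and 27.1 RPKM, and Cox6a2, Cox7a1 and Cox8b have a value above 0 in 1 library each.

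Complex V, the ATP synthase, took the largest part of the footprints on the members, 0.373 ± 0.136% of protein-coding reads in WT and 0.514 ± 0.0476% in KO-labelled libraries (SD, n = 2 each). The F1 head makes ATP with several copies each of the alpha (Atp5a1) and beta (Atp5b) subunits around a single gamma subunit (Atp5c1). In coding RPKM, Atp5b stood 7.82, 3.05, 4.04 and 3.77 times above Atp5c1 in WT replicates 1 and 2 and KO-labelled replicates 1 and 2, and Atp5a1 stood 5.42, 1.99, 4.12 and 3.26 times above it. The single-copy delta and epsilon subunits did not follow this order, since Atp5d reached 415 to 640 and Atp5e 85.1 to 667 coding RPKM. Atp5a1 had 95.8 and 142 RPKM in WT and 242 and 213 RPKM in KO-labelled libraries, from 181, 210, 688 and 539 reads. Its groups did not overlap, and the log2 difference was 0.95 ± 0.49 (SE; limma, unadjusted p = 0.101), or 0.67 without WT replicate 1. Atp5b, the member with the most reads, had 97.9 and 155 RPKM against 168 and 174 RPKM, a log2 difference of 0.47 that became 0.14 without WT replicate 1. Atp5d, the delta subunit, did not separate the groups, with 108 and 167 RPKM against 114 and 164 RPKM. Atp5c1 read 15.6 RPKM in WT replicate 1 and 52.0 to 63.4 RPKM in the other libraries, and Atp5e 7.56 RPKM against 51.5 to 59.2 RPKM, so that the low values of both were those of WT replicate 1.

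The proton-conducting ring of complex V is built from 1 protein, subunit c, which 3 genes encode with different import sequences. Atp5g3 was the main one, at 32.7 and 52.6 RPKM in WT and 82.9 and 93.1 RPKM in KO-labelled libraries (43, 54, 164 and 164 reads). The groups did not overlap, and the log2 difference was 1.06 ± 0.46 (SE; limma, unadjusted p = 0.0611, adjusted p = 0.675), or 0.73 without WT replicate 1. Of the coding RPKM of the 3 genes, Atp5g3 held 82.4%, 74.5%, 88.1% and 86.7% in WT replicates 1 and 2 and KO-labelled replicates 1 and 2. Atp5g1 held 13.9%, 21.5%, 7.79% and 7.67%, from 7, 15, 14 and 14 reads. Its shares did not overlap between groups (exact permutation test of the RPKM shares, p = 0.33). The Wilson interval of its read share in WT replicate 1, 6.68 to 25.3%, overlapped those of the KO-labelled libraries, 4.54 to 12.2% and 4.46 to 12.0%. That of WT replicate 2, 13.1 to 31.6%, did not. Atp5g2 held 3.70%, 4.00%, 4.15% and 5.62%. In RPKM, Atp5g1 itself had a log2 difference of -0.21 and Atp5g2 of 1.00.

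The subunits made inside mitochondria had lower footprint levels in the KO-labelled libraries, without any passing adjustment. Of 13 mitochondrially encoded subunits, mt-Nd4l, mt-Co2, mt-Co3 and mt-Atp6 were listed at 0 in all 4 libraries, although neighbours such as mt-Co1 had reads in every library, and 9 were tested. All 9 had a log2 difference under 0, with a median of -1.26, and 6 were lower without overlap (66.7%, against 19.3% of protein-coding genes). Without WT replicate 1 the median was -1.61, and without WT replicate 2 it was -0.86 with 1 of the 9 above 0. Cytochrome b, mt-Cytb, had 261 and 364 RPKM in WT and 89.6 and 154 RPKM in KO-labelled libraries (log2 difference -1.38; limma, unadjusted p = 0.0427). The oxidase core mt-Co1 had 520 and 437 RPKM in WT and 111 and 181 RPKM in KO-labelled libraries (log2 difference -1.74; limma, unadjusted p = 0.0174), and mt-Nd2 of complex I had a log2 difference of -1.66 (limma, unadjusted p = 0.0125). Mitochondrial ribosomal RNA took 39.1% and 30.1% of reads in WT and 15.0% and 18.5% in KO-labelled libraries, and its part in these values was not tested.

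Set against each other within a library, which needs no scaling between libraries, the 85 nuclear members had 1.13 and 1.43 reads per read on mitochondrially encoded subunits in WT replicates 1 and 2, and 6.41 and 2.77 in KO-labelled replicates 1 and 2. The same ratio was 0.557 and 0.574 against 2.53 and 0.919 for complex I. It was 0.956 and 1.01 against 4.42 and 2.54 for complex III, where the partner is mt-Cytb, and 0.506 and 0.893 against 3.36 and 2.25 for complex IV, where only mt-Co1 had reads. In all 3 complexes both KO-labelled ratios lay above both WT ratios, including that of WT replicate 2, and KO-labelled replicate 1 was the highest library (exact permutation test, two-sided, cannot go below p = 0.33). The ratio combines both directions and does not say which side moved. Protein-coding genes as a whole also took a larger part of the reads in KO-labelled libraries (59.2% to 65.4%) than in WT (33.9% to 41.5%). The same ratio over all protein-coding genes was not computed, so the separation cannot be called particular to the members. For complex V the partner was mt-Atp8 alone, with 4 to 25 reads, and the ratio was not used.

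**Figure D5:**
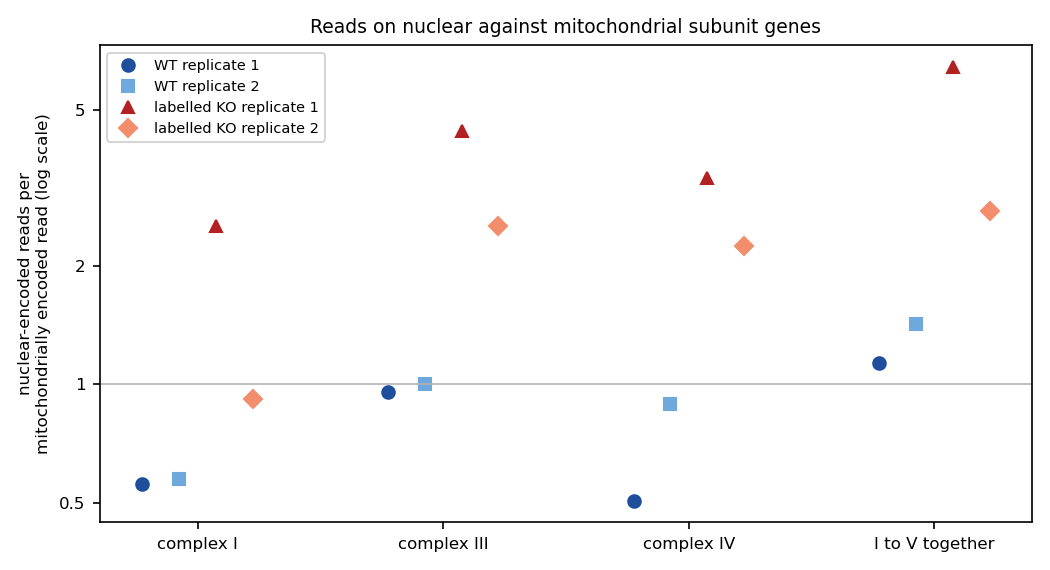
Reads on nuclear-encoded members per read on mitochondrially encoded subunits of the same complex (vertical, log scale) for complexes I, III, IV and all 5 complexes together (horizontal), one point per library. Over all complexes the WT libraries lie at 1.13 and 1.43 and the KO-labelled libraries at 6.41 and 2.77.

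Genes that build or regulate the chain did not share a clear shift. Among 15 tested complex I assembly factors the median log2 difference was 0.23, with 3 higher and 1 lower without overlap (20% and 6.67%, against 22.4% and 19.3% of protein-coding genes). For complex II it was -0.23 over 3 tested genes, for complex III 0.28 over 5, for complex IV 0.19 over 18 and for complex V 0.19 over 3. Without WT replicate 1 or WT replicate 2, these medians were -0.18 and 0.57 for complex I, -0.60 and 0.22 for complex II, 0.51 and 0.15 for complex III, 0.037 and 0.29 for complex IV and 0.20 and 0.25 for complex V, so that the sign for complexes I and II turned with the WT library used. In the complex IV list, Taco1, which activates translation of mt-Co1, had 1.20 and 3.07 RPKM in WT and 8.77 and 6.27 RPKM in KO-labelled libraries (log2 difference 1.49; limma, unadjusted p = 0.0177), from 1, 2, 11 and 7 reads. Lrpprc, which stabilises mitochondrial messages, had 2.54 and 3.24 RPKM in WT and 10.1 and 5.53 RPKM in KO-labelled libraries (log2 difference 1.14; limma, unadjusted p = 0.0370). Cox14 and Coa5 of the complex IV list were lower without overlap, with log2 differences of -0.70 and -0.73. In that list 2 genes were thus higher and 2 lower without overlap (11.1% each, against 22.4% and 19.3% of protein-coding genes). The complex I assembly factor Tmem186 was lower, with a log2 difference of -1.10 (limma, unadjusted p = 0.0453). None of these passed adjustment. Of 4 remaining chain genes outside the name rule, Ndufab1, Cyc1, Cycs and Atpif1, the median was 0.28 (0.28 without WT replicate 1 and 0.17 without WT replicate 2). Of 12 regulators of mitochondrial biogenesis 10 were tested, with a median of 0.056 (0.13 without WT replicate 1 and -0.064 without WT replicate 2), and the coactivator Ppargc1a had 4 reads in all, from the KO-labelled libraries.

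The members are short genes, with a median coding length of 411 bases against 1377 for protein-coding genes tested, and ordinary base composition, with a median coding GC of 53.5% against 53.2%. Within the members the log2 difference went down with coding GC (Spearman rho -0.40 over 79 genes), much as over all protein-coding genes (rho -0.36 over 9869). It had little relation to coding length (rho -0.060). These are correlations over genes that share the same 4 libraries. Removing the GC and length trend of each library left a median of 0.35 for the members, and of 0.39, 0.39, 0.36, 0.15 and 0.40 for complexes I to V.

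Since eIF5A is known for helping ribosomes over runs of proline, the coding sequences of the members were searched for 3 or more proline codons in a row (CCN, 3 times over, in frame). Such a run was present in 7 members, 6 of complex I and the silent Cox6b2, and no run was longer than 3. Runs from a gene that was lower, one that did not separate and one that was higher are shown 5′ to 3′ as coding sequence (GENCODE, GRCm38), with the proline codons in capitals and 9 bases on either side.
Ndufs5, codons 94 to 96: aaatacaccCCTCCACCTcaccattcg
Ndufa13, codons 11 to 13: caggacatgCCCCCGCCAgggggctac
Ndufc2, codons 22 to 24: cggagcctgCCCCCGCCCaagctgaac
The log2 difference was -1.31 for Ndufs5, -0.47 for Ndufa7, -0.43 for Ndufv3, -0.076 for Ndufa13 and 0.88 for Ndufc2, and the median over the 6 tested members with a run was -0.25. Among the 73 without a run the median was 0.48, and 60 were above 0. For comparison, 2519 tested protein-coding genes with such a run had a median of -0.13. Of the 6 members, 1 was higher and 2 lower without overlap (16.7% and 33.3%). Of the 2519 genes, 15.2% were higher and 26.5% lower without overlap, and 41.6% were above 0. Over all protein-coding genes tested, 22.4% were higher and 19.3% lower without overlap, and 53.1% were above 0. The genes with a run thus lay in both directions, with more of them lower. The part of coding GC in this was not tested.

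The promoters of respiratory chain genes are known for sites of the factors NRF1 and GABP, an ETS protein. Windows from 250 bases before to 50 bases after the start were found in RefSeq (GRCm38.p6) for 67 members. The NRF1 motif of the letters GCGCA, any base, then GCGC, searched on both strands, was in 17 of 67 windows (25.4%), against 5.19% of all RefSeq genes and 12.3% of tested protein-coding genes. The ETS motif CCGGAAG was in 25.4%, against 21.2% of tested protein-coding genes, and the YY1 motif AANATGGC in 23.9%, against 10.4%. The E-box CAGCTG, a site of muscle regulatory factors, was in 8.96%, against 17.5%. Matches to the NRF1 motif in 4 promoters are shown on the strand of the gene, 5′ to 3′, with the match in capitals, from genes of complexes I, II and V with differing directions.
Ndufa5, chr6:24527692-24527731, minus strand: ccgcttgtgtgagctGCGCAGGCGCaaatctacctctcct
Ndufs5, chr4:123718260-123718299, minus strand: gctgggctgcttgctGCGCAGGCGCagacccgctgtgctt
Sdha, chr13:74350271-74350310, minus strand: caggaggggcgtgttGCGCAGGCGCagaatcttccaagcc
Atp5h, chr11:115420036-115420075, minus strand: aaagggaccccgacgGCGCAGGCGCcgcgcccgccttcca
All 4 carry the same 10 bases, although Ndufa5 was higher and Ndufs5 lower without overlap, while Sdha and Atp5h overlapped between groups. Of the factors themselves, Nrf1 had a log2 difference of -0.45 and Gabpa of 0.89, and neither passed an unadjusted p of 0.05. Gabpa shares 397 exon bases with Atp5j on the opposite strand, so reads there cannot be told apart. A match is a description of the letters and not of binding.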

How the data were processed

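Ribosome-protected fragments of 2 WT and 2 KO-labelled libraries were analysed. The authors removed rRNA and tRNA reads, aligned single-end reads to mm10 with TopHat2, counted genes with HTSeq on Ensembl 97 and deposited RPKM values; strand use and the treatment of multiply mapped reads are not given in the sources used here. The deposited RPKM multiplied by gene length gave whole reads for 100% of values (tolerance 0.01), on a scale set by median-of-ratios size factors, so that a shift common to all genes cannot be seen. Total reads per library were 648386, 642429, 704006 and 650210, which limits precision for members with few reads.

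Genes with a mean of at least 1 RPKM were tested on log2(RPKM + 1), a scale that understates changes of low genes, with limma 3.58.1 (empirical Bayes with trend; R 4.3.3) on all 4 libraries without a block, with Benjamini-Hochberg adjustment over 11363 genes. Shares were tested with exact two-sided permutation tests (scipy 1.17.1), and figures drawn with matplotlib 3.10.9. Coding lengths came from GENCODE. Of the gene identifiers 99.8% were found there. Same-numbered libraries did not deviate together (r = 0.057 over tested genes, 2 pairs), so replicate numbers were not taken as pairs. Counts by limma-voom and other scalings, filters and omissions were alternatives.

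Named genes were Eif5a, complex II, the 3 members with the highest mean RPKM in each other complex, members with an unadjusted p under 0.05, the 5 largest differences in each direction among members with a mean of at least 5 RPKM and no overlap, and the paralog pairs. Other members are named where a result turns on them, after their values were seen. The members and lists were chosen with earlier results of these data known. Of 85 members 30 share exon bases with another gene, 23 of them with one that has reads, and 8 named pseudogenes of members had 0 reads. The values of 1 member are not reported here.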

Additional observations from a re-analysis of the deposited data

How the results depend on the processing

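No member passed an adjusted p of 0.05 with limma under any alternative run. Leaving out 1 library in turn gave a median difference of the members from 0.084 (without WT replicate 1) to 0.79 (without WT replicate 2), and medians of complexes I to V from 0.13 to 0.73, 0.22 to 0.62, 0.24 to 0.79, 0.0075 to 0.41 and 0.0072 to 1.29. Members past 2-fold and an unadjusted p of 0.05, 5 with all libraries, numbered 0 (without KO-labelled replicate 2; 2.98% of protein-coding genes) to 20 (without WT replicate 2; 11%). Those whose groups did not overlap, which is easier with 3 libraries, numbered 51 to 72 (64.2% to 77.8% of protein-coding genes), higher 33 to 61 (34.2% to 39.8%) and lower 10 to 24 (30.0% to 38.0%). Share differences ran from -4.48 to 0 points for Cox6a2, -8.93 to 0 for Cox7a1 and -3.53 to 0 for Cox8b. Assembly factors, remaining subunits and regulators past 2-fold and an unadjusted p of 0.05 (limma) numbered 3 with all libraries, where 5.57% of protein-coding genes passed. The sign turned without WT replicate 1 for Atp5d (-0.29 to 0.33 over the omissions), Cox7a2 (-0.38 to 1.36), Ndufa2 (-0.28 to 0.96), Uqcr11 (-0.19 to 1.15) and Uqcrq (-0.34 to 0.69), without KO-labelled replicate 2 for Atp5d (-0.24) and Ndufa2 (-0.21), and without WT replicate 2 for Atp5g1 (-0.79 to 0.36), Ndufa8 (-0.68 to 0.27) and Sdhd (-0.67 to 0.29). Of the other named genes, Uqcrfs1 came to 0.021 and Atp5g2 to 0.66 without WT replicate 1, Cox8a to -0.091 and Ndufa11 to -0.21 without WT replicate 2, Sdha to 0.079, Ndufa4 to 0.086 and Cox7a2l to -0.87 without KO-labelled replicate 1, and Cox4i2 to -1.12 and Ndufv3 to -0.18 without KO-labelled replicate 2.

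Scaling to total reads moved the median of all genes by 0.47 and that of protein-coding genes to 0.53. The members' median was then 1.06, those of complexes I to V 0.98, 1.08, 1.01, 0.99 and 1.27, members past 2-fold 29 (15.8% of protein-coding genes), members without overlap 60 (58 higher, 2 lower; 46.5% and 6.11%), and the other chain genes 7. Atp5g1 (0.28), Cox8a (0.31), Ndufa11 (0.056), Ndufa8 (0.40), Ndufv3 (0.13) and Sdhd (0.41) changed sign, all below the shift of all genes. Members past 2-fold numbered 8 with quantile normalization (5.92% of protein-coding genes) and 10 with limma-voom on reads (9.57%). They numbered 8 after each library's GC and length trend was taken out (6.15%). Among genes with at least 40 reads they numbered 3, and 5 members were lower without overlap. No share of protein-coding genes was taken with the filter of 40 reads, so these counts have nothing to be set against. This last filter, Ndufa4 and Ndufa4l2 counted with complex IV (medians 0.46 and 0.41), and non-overlap under other scalings were chosen after seeing the data. Complex IV had a median of 0.49 at 5 RPKM or more, 0.54 with quantile normalization and 0.15 with that trend out, when complex V had 0.40. The other chain genes numbered 0 at 5 RPKM or more, where 5.85% of protein-coding genes passed. With the replicate number as a block, members past 2-fold numbered 6 (5.46%), or 9 with the trend out as well (7.61%), when complex IV had 0.15. The cause of these changes was not tested. Depth limits members such as Cox4i2 and Ndufs5.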

Other observations

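The enzymes that feed the chain were also compared. Of 16 enzymes of the tricarboxylic acid cycle and pyruvate dehydrogenase, all were tested and 15 had a log2 difference above 0, with a median of 0.44. Both KO-labelled libraries lay above both WT libraries in 9 of them (56.2%, against 22.4% of protein-coding genes), and in none were both below. Without WT replicate 1 the median was 0.34 and 13 were above 0, although WT replicate 1 was the lowest library for 11 of the 16. Idh3a, the catalytic subunit of NAD-dependent isocitrate dehydrogenase, had 3.6 and 4.6 RPKM in WT replicates 1 and 2 and 9.56 and 10.7 RPKM in KO-labelled replicates 1 and 2 (log2 difference 1.13; limma, unadjusted p = 0.0213, adjusted p = 0.660). Dld, the lipoamide dehydrogenase shared by the pyruvate and oxoglutarate complexes, had 8.56 and 19.6 RPKM in WT and 27.5 and 30.9 RPKM in KO-labelled libraries. Citrate synthase, Cs, had 18.1 and 26.8 RPKM against 29.6 and 27.2 RPKM. No enzyme of the list passed adjustment.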
